A study of Mus musculus with 9 samples.

Results

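The 8 forkhead genes examined here, Foxc1, Foxc2, Foxf1, Foxf2, Foxl1, Foxd1, Foxp1 and Foxp2, were chosen by name as forkhead genes of limb mesenchyme, with earlier results of these data known, and the rule that finds their peaks uses position only. They are 8 of the 21938 protein-coding genes placed on assembled chromosomes in GENCODE release M21. Around each gene, acetylation was read from its gene span plus 50 kb on each side, and peaks that fell near several neighbouring genes were counted once. Foxf1, Foxc2 and Foxl1 lie side by side on chromosome 8 and were treated as 1 locus, so the 8 genes form 6 loci. These loci held 17 of the 25096 peaks in the WT list, 25 of 32085 in the Shh-/- list and 39 of 34641 in the Shh-/-;Gli3-/- list.

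Forkhead (FOX) proteins are transcription factors that bind DNA through a shared winged-helix domain, and their core site contains the letters TGTTTAC. Foxc1 and Foxc2 are known for roles in mesenchyme, somites and blood vessels. Foxf1, Foxf2 and Foxl1 are known Hedgehog-dependent genes of the mesenchyme that lies next to gut and facial epithelium. Foxd1 marks stromal progenitors of the kidney, and Foxp1 and Foxp2 encode FOX proteins that act mainly as transcriptional repressors in the nervous system, lung, heart and limb. Acetylation of lysine 27 on histone H3 (H3K27ac) is found at promoters and enhancers in use, and a peak is an interval where immunoprecipitated reads exceeded the reads of an input library.

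The mark was profiled by MicroChIP-seq, which needs few cells, in forelimb buds of mouse embryos at E10.5, staged at 33 to 34 somites. The series has 9 libraries, with 2 H3K27ac replicates and 1 input for each of 3 genotypes: WT littermates, Shh-/- embryos homozygous for a null allele of Sonic hedgehog, and Shh-/-;Gli3-/- embryos that also carry the null XtJ allele of Gli3, which encodes the main repressor of Hedgehog targets in the limb. The labels give a mixed strain background for every library, while the study's methods say that both null alleles were kept on Swiss Webster. Both were germline nulls, and each immunoprecipitation took 1 pair of whole forelimb buds. No agent was given to any group. A single peak list stands for each genotype, so every value below is 1 value per genotype, no spread between replicates can be given, and no p-values were calculated. The lists hold no read totals, so the depth of each library was not used here beyond the minimum that the study's methods state for all, and Wilson 95% intervals cover counting error over peaks only. In whole buds, acetylation in fewer cells and less acetylation per cell cannot be told apart.

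The WT, Shh-/- and Shh-/-;Gli3-/- lists covered 10.4, 12.9 and 17.1 Mb in all and the forkhead values are set beside this list-wide difference. Of the peaks in each list, 60.8%, 72.4% and 83.4% had a deposited false discovery rate (FDR) below 0.05. The paper reports its MicroChIP peaks at that limit, whereas the values below use every deposited peak unless the limit is named. The promoters of 8 of 8 limb mesenchyme markers carried a peak in every list, whereas 0 of 2 hindlimb, 0 of 6 limb ectoderm, 0 of 3 heart and 0 of 4 nervous system markers did. Among other cell types, peaks marked the promoters of 2 of 5 blood genes (Tal1, Klf1) in Shh-/- only, and of 1 of 6 endothelial genes (Pecam1) in Shh-/-;Gli3-/- only. Of 4 genes of somites and other mesoderm, 1, 2 and 1 were marked. The part of other cells in the forkhead values was not tested.

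The forkhead loci carried more acetylated length in Shh-/-;Gli3-/- than in either other list. The peaks covered 6200 bp in WT, 7450 bp in Shh-/- and 16200 bp in Shh-/-;Gli3-/-. The Shh-/- to WT ratio was 1.20, close to the 1.25 of the whole lists, while the Shh-/-;Gli3-/- to WT ratio was 2.61 beside 1.66 for the whole lists. Most of the added length lay away from promoters. Peaks were called distal when they overlapped no window reaching 2 kb ahead of and 1 kb past the start of a protein-coding transcript, and 9 such peaks (2150 bp) were found in WT, 15 (2800 bp) in Shh-/- and 29 (9000 bp) in Shh-/-;Gli3-/-. Distal length thus stood at 4.19 times the WT value in Shh-/-;Gli3-/-, where it stood at 2.57 times over the whole lists. These counts depended on list length. With the 25096 best-scoring peaks of each list, distal peaks numbered 9, 6 and 14, so that Shh-/- stood below WT. The Shh-/-;Gli3-/- count was then 1.56 times that of WT instead of 3.22 times. Over the whole lists the same ratio was 1.16 instead of 1.81. The Shh-/- to WT ratio with equal numbers was 0.667 at the forkhead loci beside 0.988 over the whole lists. Peaks at the promoters of the 8 genes themselves numbered 7, 7 and 6 and covered 2400, 2750 and 4750 bp.

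The change was spread unevenly over the 6 loci. Foxp1 alone contributed 49.5% of the length by which Shh-/-;Gli3-/- exceeded WT, Foxp2 25.0% and Foxc1 14.5%. Without Foxp1 the remaining loci covered 4350, 4050 and 9400 bp, which gives ratios to WT of 0.931 for Shh-/- and 2.16 for Shh-/-;Gli3-/-. The small excess of Shh-/- over WT therefore rested on Foxp1, whereas leaving out any 1 locus kept the Shh-/-;Gli3-/- ratio between 2.16 and 3.20. When each list was cut to its 25096 best-scoring peaks, the loci covered 6200, 6150 and 13850 bp, and the Shh-/- ratio was 0.992 beside 1.16 for the whole lists, while the Shh-/-;Gli3-/- ratio was 2.23 beside 1.52.

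**Figure D1:**
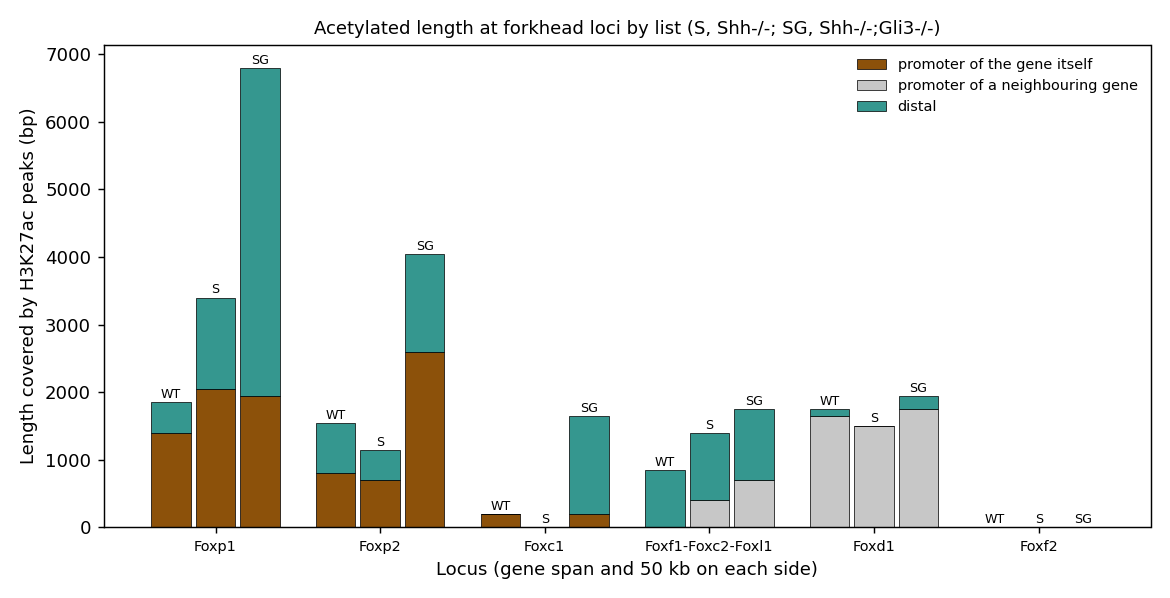
Length covered by H3K27ac peaks (bp, vertical axis) at each forkhead locus (horizontal axis) in the WT, Shh-/- (S) and Shh-/-;Gli3-/- (SG) lists, stacked by promoter peaks of the gene itself, promoter peaks of a neighbouring gene and distal peaks. The Foxp1 bars reach 1850, 3400 and 6800 bp with distal peaks making up most of the last, the Foxd1 bars are nearly all a neighbour's promoter, and Foxf2 has no bar.

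Gene by gene, 7 of the 8 genes had a peak in their window in at least 1 list, and in 7 of 7 the covered length was highest in Shh-/-;Gli3-/-, an ordering found for 54.9% of protein-coding genes with a peak. Foxf1, Foxc2 and Foxl1 share peaks, so these are 5 separate loci. A difference of at least 1.5-fold in covered length, counting a gain from 0 as past that size, was found for 6 of 7 genes from WT to Shh-/-;Gli3-/- (Foxc1, Foxc2, Foxf1, Foxl1, Foxp1, Foxp2), compared with 38.7% of all genes, and a decrease of that size for 0 of 7 beside 6.29%. From WT to Shh-/- it was found for 4 of 7 (Foxc2, Foxf1, Foxl1, Foxp1) beside 30.8%, and the decrease for 1 of 7 (Foxc1) beside 8.49%. From Shh-/- to Shh-/-;Gli3-/- covered length was higher by that size for 5 of 7 (Foxc1, Foxc2, Foxf1, Foxp1, Foxp2) beside 21.6%, and lower for 0 of 7 beside 12%. The comparisons with WT share the WT list, so they are not independent of each other. Of the 36 other forkhead genes, 18 of the 29 with a peak in any list were also highest in Shh-/-;Gli3-/-, and 16 of 28 were at least 1.5-fold above WT there.

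Peaks at the genes' own promoters were called for 3 of the 8. In WT, Foxc1, Foxp1 and Foxp2 carried a promoter peak (3 of 8, with 44.1% of all protein-coding genes). In Shh-/-, Foxp1 and Foxp2 did (2 of 8, with 48.1%), and in Shh-/-;Gli3-/- the same 3 as in WT (3 of 8, with 46.2%). Foxp1 and Foxp2 were thus marked in all lists, as were 41.5% of genes. Foxc2, Foxd1, Foxf1, Foxf2 and Foxl1 had no promoter peak in any list, which held for 49% of genes and for 21 of the 36 other forkhead genes. Foxc1 was the only one marked in WT and Shh-/-;Gli3-/- but not in Shh-/-, a pattern shared by 0.884% of all genes and by 0 of the 36 other forkhead genes.

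Foxc1, a gene of 1 exon at chr13:31806633-31812476 on the plus strand, had 1 called peak in WT, none in Shh-/- and 7 in Shh-/-;Gli3-/-. A missing call does not show that the mark is absent, since only called peaks were read. The WT list held 1 peak in its window, 200 bp wide, at chr13:31806800-31806999 in the annotated 5′ UTR, 167 bp after the start. Its deposited log2 fold over input was 2.63 with an FDR of 0.0257, at percentile 45.7 of the WT scores. The Shh-/- list held no peak within the Foxc1 window, and its nearest peak lay 89.1 kb away. In Shh-/-;Gli3-/- the same 200 bp interval was called again (log2 fold 2.38, FDR 0.0158, percentile 31.7), together with 6 distal peaks, for 1650 bp in all against 200 bp in WT. A 350 bp peak lay wholly in the coding sequence and began 67 bp beyond the promoter window. A 100 bp peak lay in the annotated UTR after it, peaks of 300 and 150 bp followed 8.77 and 9.44 kb downstream of the start, and peaks of 350 and 200 bp lay in an intron of the neighbouring gene Gmds. These 6 distal peaks overlapped no peak of another list, and 5 of them had an FDR below 0.05. The strongest, with a log2 fold of 3.11, an FDR of 0.000974 and percentile 67.6, was chr13:31815250-31815549 in intergenic sequence. It was the strongest forkhead distal peak found in Shh-/-;Gli3-/- alone, and its whole sequence is given on the plus strand of GRCm38 (the assembly of mm10).
Foxc1 downstream peak, chr13:31815250-31815549: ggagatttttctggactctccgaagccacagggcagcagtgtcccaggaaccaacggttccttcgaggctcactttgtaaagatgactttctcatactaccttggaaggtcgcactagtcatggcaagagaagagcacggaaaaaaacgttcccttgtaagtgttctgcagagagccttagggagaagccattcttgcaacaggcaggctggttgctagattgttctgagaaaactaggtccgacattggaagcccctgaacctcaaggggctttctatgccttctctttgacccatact

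Foxf2, at chr13:31625816-31631403 in the same cluster as Foxc1 but with a window that does not touch it, had no peak within 50 kb in any list. This was true of 19.6% of protein-coding genes and of 7 of the 36 other forkhead genes, among them Foxq1, which lies in that cluster. The nearest peaks to the Foxf2 start lay at 167 kb for the WT list, at 91.6 kb for Shh-/- and at 181 kb for Shh-/-;Gli3-/-, where the nearest was the Foxc1 promoter peak itself. Within this cluster the lists thus differed at Foxc1 and were empty at Foxf2.

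At the chromosome 8 cluster, where Foxf1 (chr8:121084386-121088144), Foxc2 (chr8:121116171-121118895) and Foxl1 (chr8:121127940-121130644) lie on the plus strand, none of the 3 promoters was marked in any list. The locus held 2 peaks (850 bp) in WT, 6 (1400 bp) in Shh-/- and 4 (1750 bp) in Shh-/-;Gli3-/-. The acetylation common to all lists was a group of peaks about 47 kb downstream of the Foxl1 start, inside an intron of the long annotated gene Gm20388. WT had a 700 bp peak there (log2 fold 3.75, FDR 0.00126, percentile 84.4), Shh-/- a 500 bp peak (log2 fold 4.07, percentile 86.9) with narrower ones beside it, and Shh-/-;Gli3-/- peaks of 750 bp (FDR 0.000994, percentile 63.9) and 300 bp. These folds are relative to different inputs and were not compared. Within its own list the interval ranked high in WT and Shh-/- and nearer the middle in Shh-/-;Gli3-/-. The WT list also held a 150 bp peak at chr8:121170350-121170499 with a log2 fold of 2.43 and an FDR of 0.0998 that no other list shared. Shh-/- held a 200 bp peak of its own at chr8:121173900-121174099 (log2 fold 2.49, FDR 0.0832) and another at chr8:121174600-121174799 (log2 fold 2.90, FDR 0.00508) that met a peak of Shh-/-;Gli3-/- but none of WT.

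Closer to the genes, peaks appeared in both mutant lists but not in WT. They were centred 7.60 to 8.17 kb upstream of Foxc2, at the promoter of Mthfsd, which is transcribed away from Foxc2. Shh-/- had peaks of 250 bp (log2 fold 3.38, FDR 0.0001, percentile 70.9) and 150 bp, and Shh-/-;Gli3-/- of 600 bp (log2 fold 2.72, FDR 0.00157, percentile 52.7) and 100 bp. They are the only peaks within 50 kb of Foxf1 and of Foxc2 in any list, which is why these genes count as higher in the mutants. The nearest WT peak was 86.0 kb from the Foxf1 start and 54.2 kb from the Foxc2 start. The middle 300 bases of the WT peak downstream of Foxl1 are given on the plus strand of GRCm38, as the strongest distal acetylation of this cluster in WT. Capitals mark an E-box of the letters CAGATG, found at 2 places, and a forkhead motif on the minus strand (GTAAACA).
Foxl1 downstream peak, chr8:121175200-121175499: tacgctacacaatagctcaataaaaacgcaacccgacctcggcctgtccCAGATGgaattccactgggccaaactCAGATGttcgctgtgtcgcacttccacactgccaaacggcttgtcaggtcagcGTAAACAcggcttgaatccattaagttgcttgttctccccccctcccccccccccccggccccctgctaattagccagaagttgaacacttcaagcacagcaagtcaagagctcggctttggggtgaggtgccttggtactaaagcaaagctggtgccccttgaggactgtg

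Foxd1 (chr13:98354242-98359305) had no called peak at its promoter, and most of the covered length in its window was the promoter of a neighbour in each list. That promoter belongs to Btf3, which encodes a subunit of the nascent polypeptide-associated complex, and its peak was 1650 bp wide in WT, 1500 bp in Shh-/- and 1550 bp in Shh-/-;Gli3-/-. With percentiles of 97.9, 93.7 and 99.4 it was the only peak at any of the 6 loci above percentile 90 of its list. Apart from it, WT held a 100 bp distal peak 31.6 kb upstream of the Foxd1 start (log2 fold 2.40, FDR 0.106) and Shh-/-;Gli3-/- a 200 bp peak 37.0 kb downstream (FDR 0.0546) and another 200 bp peak beside the Btf3 promoter peak (FDR 0.0232). Covered length at Foxd1 was 1750, 1500 and 1950 bp, and of the loci with peaks it differed least between the lists.

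Foxp1 (chr6:98925338-99522721, minus strand) was the longest member, with 6 peaks in WT, as many as Foxp2, and with the most peaks of any member in Shh-/- (14) and in Shh-/-;Gli3-/- (17). They covered 1850, 3400 and 6800 bp. Set against its long window, this came to 265, 488 and 975 bp per 100 kb, while the median over all protein-coding genes was 603, 760 and 881 bp. Foxp1 thus lay below the median gene in WT and Shh-/- and above it in Shh-/-;Gli3-/-. The annotation gives 5 groups of protein-coding starts, and peaks were called at 2 of them. At the start farthest upstream (99520997) there were 2 peaks (1150 bp) in WT, 4 (1500 bp) in Shh-/- and 2 (1950 bp) in Shh-/-;Gli3-/-, and the widest of each list there measured 900, 600 and 1550 bp. At the start farthest downstream (99028258) there was 1 peak in WT (250 bp, FDR 0.106), 2 in Shh-/- (550 bp, the stronger with log2 fold 3.26 and FDR 0.00027) and none in Shh-/-;Gli3-/-. The Shh-/- and WT peaks at this start did not overlap each other.

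Distal peaks at Foxp1 numbered 3 in WT, 8 in Shh-/- and 15 in Shh-/-;Gli3-/-, with 450, 1350 and 4850 bp. The widest was chr6:99066750-99067999 in an intron, 39.1 kb upstream of the start farthest downstream. In Shh-/-;Gli3-/- it was a single 1250 bp peak with a log2 fold of 4.32, an FDR of 0.000233 and percentile 89.9. In WT the interval held 2 narrow peaks of 100 and 200 bp with FDRs of 0.341 and 0.168, and in Shh-/- 1 peak of 100 bp with an FDR of 0.180. All 3 lists thus called the interval, but in WT and Shh-/- among their weakest peaks, between percentiles 0.195 and 19.4. The WT peaks did not overlap the Shh-/- peak, and were joined to it only through the wide Shh-/-;Gli3-/- peak. A second intronic interval, chr6:99484750-99485699, was 950 bp wide in Shh-/-;Gli3-/- (log2 fold 2.76, FDR 0.00126), 150 bp in WT (FDR 0.170) and without a peak in Shh-/-.

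Both mutant lists called the identical 250 bp interval chr6:99439850-99440099, which lies 4.63 kb upstream of another Foxp1 start and was not called in WT. Its log2 fold was 3.01 and its FDR 0.0029 in Shh-/-, and 2.13 and 0.0697 in Shh-/-;Gli3-/-. Next to the wide intronic interval, chr6:99068350-99068699 was also called in both mutant lists only (log2 fold 2.87, FDR 0.00118 in Shh-/-;Gli3-/-). The Shh-/- call there was a 100 bp peak with an FDR of 0.177, among the weakest of its list. A further 11 distal regions were called in Shh-/-;Gli3-/- alone and 4 in Shh-/- alone, and none in WT alone. The Shh-/-;Gli3-/- ones were mostly narrow, from 100 to 400 bp, and the strongest of them, chr6:99101200-99101599, had a log2 fold of 2.92 and an FDR of 0.00116, followed by chr6:99095000-99095249 with 2.62 and 0.00274. The strongest in Shh-/- alone, chr6:99128250-99128399, had a log2 fold of 2.88 and an FDR of 0.00645, and chr6:99420700-99420999 had nearly the same values. Sequences are given for the forkhead distal peak of highest deposited fold among those called in all lists, and likewise among those called in both mutant lists only, as 300 bases of the plus strand of GRCm38 centred on the middle of the peak. By percentile within its own list the order of the latter class turns, since chr6:99068350-99068699 stood at 59.4 in Shh-/-;Gli3-/- and chr6:99439850-99440099 at 56.1 in Shh-/- and 10.1 in Shh-/-;Gli3-/-. The first window is centred on the Shh-/-;Gli3-/- peak, and both WT peaks of that interval lie past its last base. Capitals mark a forkhead motif.
Foxp1 intron, all lists, chr6:99067225-99067524: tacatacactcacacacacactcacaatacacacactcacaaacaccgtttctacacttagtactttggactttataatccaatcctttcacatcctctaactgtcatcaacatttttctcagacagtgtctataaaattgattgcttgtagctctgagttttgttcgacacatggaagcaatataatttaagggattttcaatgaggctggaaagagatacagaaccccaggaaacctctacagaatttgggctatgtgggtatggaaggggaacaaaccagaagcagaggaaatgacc
Foxp1 intron, mutant lists only, chr6:99439825-99440124: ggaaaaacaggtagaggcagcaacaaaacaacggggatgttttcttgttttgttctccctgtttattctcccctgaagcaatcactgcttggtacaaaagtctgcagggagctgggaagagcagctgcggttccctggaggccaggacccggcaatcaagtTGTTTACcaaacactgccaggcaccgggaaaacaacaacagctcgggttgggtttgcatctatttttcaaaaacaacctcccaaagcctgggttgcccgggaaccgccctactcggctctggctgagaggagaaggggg

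Foxp2 (chr6:14901349-15441977, plus strand) was acetylated mainly at its upstream promoter and just ahead of it. Its window held 6 peaks in WT, 4 in Shh-/- and 8 in Shh-/-;Gli3-/-, covering 1550, 1150 and 4050 bp. Unlike Foxp1, Foxp2 was at its lowest in Shh-/-, at 0.742 times the WT length. This order depended on the cutoff. With equal numbers of peaks per list Foxp2 covered 1550 bp in WT and 950 bp in Shh-/-. With peaks of FDR below 0.05 it covered 900 bp in WT and 950 bp in Shh-/-, so the dip was gone. At the upstream start the WT list held 3 peaks of 350, 200 and 250 bp, Shh-/- 1 peak of 700 bp (FDR 0.0138), and Shh-/-;Gli3-/- 1 peak of 2200 bp (log2 fold 4.12, FDR 0.000311). This was the widest peak at any forkhead locus in any list. The Shh-/- peak ended 500 bp before the start, whereas WT had a peak just after it (FDR 0.0108) and the Shh-/-;Gli3-/- peak ran across it. A second group of starts within the gene (15184647 to 15185506) carried 2 peaks of 250 and 150 bp in Shh-/-;Gli3-/- only, the first with a log2 fold of 3.13 and an FDR of 0.000974. Beyond the end of the gene, WT held a 150 bp peak at chr6:15458200-15458349 (log2 fold 2.42, FDR 0.106) that no other list shared.

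Upstream of Foxp2, 2.55 to 3.40 kb before the start, lay a cluster of distal peaks. The part nearer the gene was called in all lists, with widths of 300 bp in WT, 250 bp in Shh-/- and 500 bp in Shh-/-;Gli3-/-. The part farther out was called in WT (300 bp, log2 fold 3.26, FDR 0.00159) and in Shh-/-;Gli3-/- (600 bp, log2 fold 3.85, FDR 0.000311) and not in Shh-/-. Among forkhead distal peaks with that pattern it had the highest deposited fold. Between the 2 parts Shh-/-;Gli3-/- had a 100 bp peak with an FDR of 0.0697. Sequences of 300 bases from the plus strand of GRCm38 are given for the outer part and for this small peak. The latter was chosen after its sequence was searched, because its window holds in capitals the GLI motif GACCACCCA. No other forkhead peak had it in the 300 bp window searched around its middle. The parts of wider peaks beyond that window were not searched.
Foxp2 upstream, outer part, chr6:14897800-14898099: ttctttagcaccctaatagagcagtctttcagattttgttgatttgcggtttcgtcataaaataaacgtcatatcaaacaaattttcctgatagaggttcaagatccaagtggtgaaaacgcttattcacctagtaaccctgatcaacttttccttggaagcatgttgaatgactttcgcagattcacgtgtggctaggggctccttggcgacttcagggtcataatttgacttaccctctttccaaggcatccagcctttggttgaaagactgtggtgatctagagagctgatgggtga
Foxp2 upstream, small peak, chr6:14898200-14898499: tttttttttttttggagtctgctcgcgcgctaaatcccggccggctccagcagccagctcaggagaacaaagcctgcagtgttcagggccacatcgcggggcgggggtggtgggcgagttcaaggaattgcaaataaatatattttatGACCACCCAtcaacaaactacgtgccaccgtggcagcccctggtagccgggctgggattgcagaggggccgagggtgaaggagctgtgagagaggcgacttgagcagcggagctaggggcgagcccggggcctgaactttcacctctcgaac

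**Figure D2:**
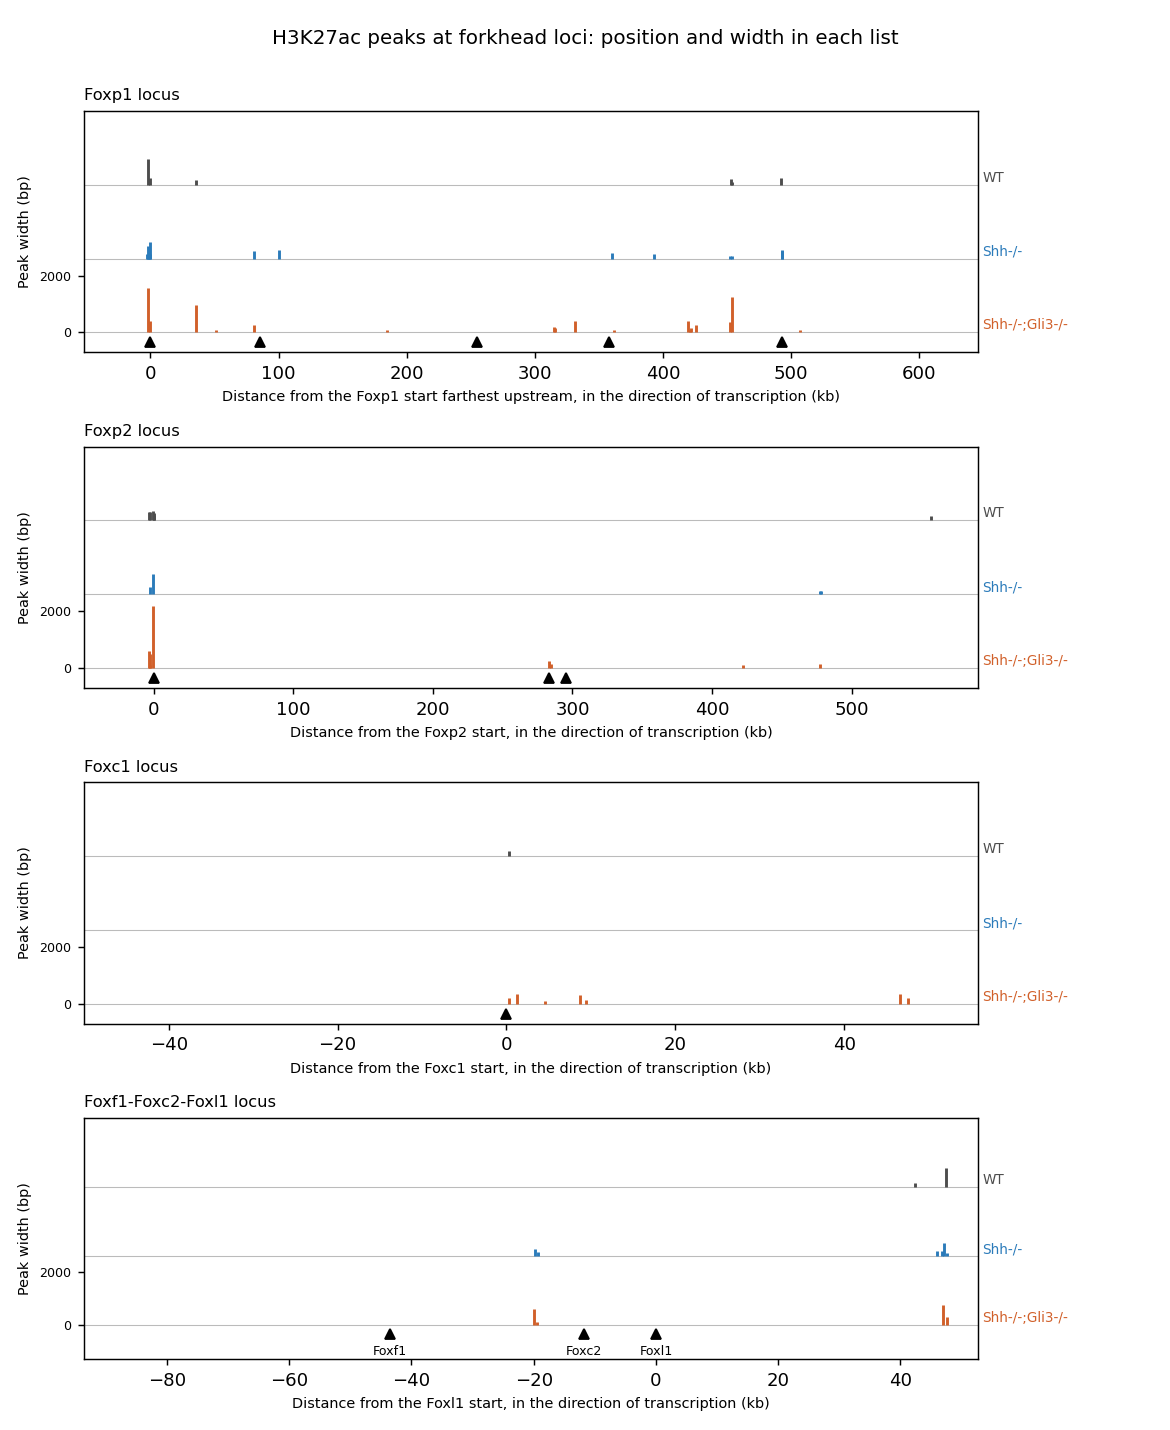
H3K27ac peaks at 4 forkhead loci, placed by distance from a gene start (kb, horizontal axis; triangles mark starts) and drawn as lines whose height is the peak width (bp, the same scale for each list). The Foxp1 gene body holds 15 distal peaks in Shh-/-;Gli3-/- and 3 in WT, Foxp2 peaks stand mainly at its upstream start, Foxc1 has no line in Shh-/-, and in the cluster of Foxf1, Foxc2 and Foxl1 no line stands at a triangle.

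Overlap between lists was lower for WT and Shh-/- than for WT and Shh-/-;Gli3-/- at these loci. Of the 17 WT forkhead peaks, 6 were overlapped by a Shh-/- peak (35.3%, Wilson 95% interval 17.3 to 58.7%), and 11 were not, where 36.6% of all WT peaks were not. By contrast, 13 of 17 were overlapped by a Shh-/-;Gli3-/- peak (76.5%, 52.7 to 90.4%), so 4 were not, with 29.2% over the whole WT list. When each peak of a pair had to cover 50% of the other, 5 of 17 (29.4%) and 6 of 17 (35.3%) met a partner, so the shares in the mutants lay close together. With peaks of FDR below 0.05 in both lists, 4 of 7 (57.1%, beside 74.9% of all such WT peaks) were overlapped in Shh-/- and 7 of 7 (beside 83.3%) in Shh-/-;Gli3-/-. Among the 9 distal WT peaks, 7 were not overlapped in Shh-/- (61% of all distal WT peaks) and 3 were not in Shh-/-;Gli3-/- (47.6%).

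Taken the other way, 28 of the 39 Shh-/-;Gli3-/- forkhead peaks met no WT peak, with 56.7% over the whole list, and 27 met no Shh-/- peak, with 50.6%. Of its 29 distal peaks 23 met no WT peak (77.3% of all) and 23 no Shh-/- peak (71.5% of all). The share of distal peaks without a WT partner was thus close to that of the whole list, and it was the number of distal peaks that stood higher. That number was 3.22 times the WT number, beside 1.81 times over the whole lists. With equal numbers of peaks per list it was 1.56 times beside 1.16. Of the 25 Shh-/- peaks, 17 met no WT peak (51.6% of all) and 10 met no Shh-/-;Gli3-/- peak (38.8% of all). Of its 15 distal peaks 12 met no WT peak (73.5% of all) and 7 no Shh-/-;Gli3-/- peak (56.2% of all).

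Joining overlapping peaks of the lists gave 52 forkhead regions, 38 of them distal. A region counted for every list with a peak in it. WT and Shh-/- peaks within a region need not overlap each other, as at chr6:99066750-99067999. Shh-/-;Gli3-/- alone called 24 of the 52 (29.5% of all regions) and 21 of the 38 (39% of all distal regions), of which 13 had an FDR below 0.05. All lists shared 7 regions (25.3% of all), WT and Shh-/-;Gli3-/- shared 3 that Shh-/- lacked (3.72%), both mutants shared 4 (7.4%), and WT shared 0 with Shh-/- alone (1.76%). Regions called once only numbered 4 in WT (11.1%) and 10 in Shh-/- (21.2%). The 3 that Shh-/- lacked were the Foxc1 promoter, the outer part upstream of Foxp2 and the Foxp1 interval at 99484750.

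**Figure D3:**
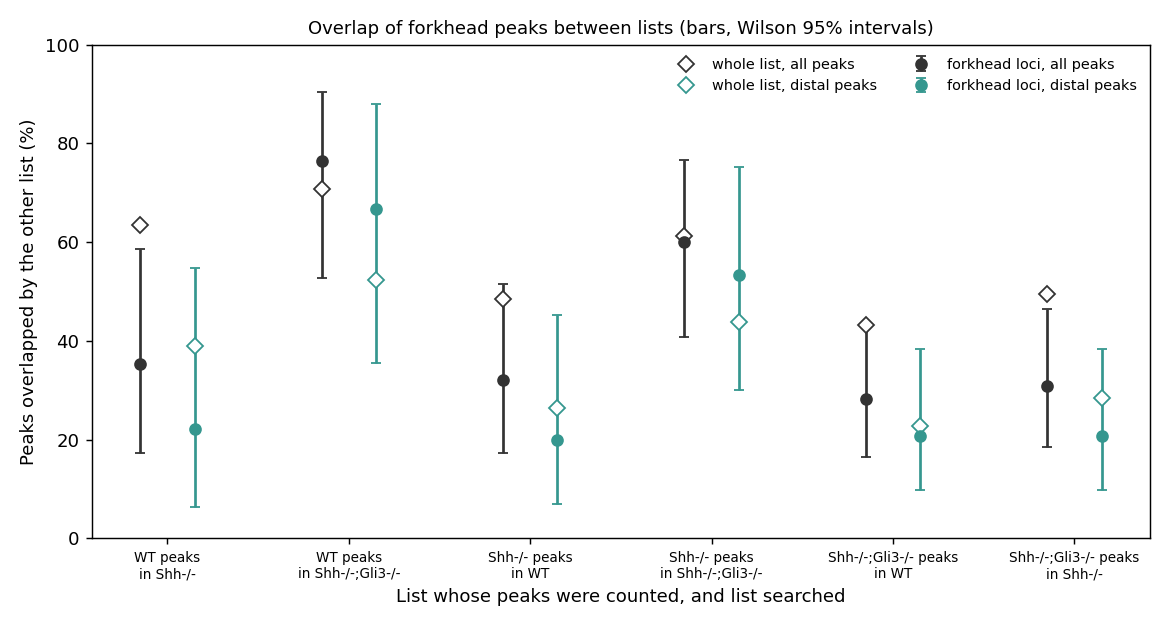
Share of peaks (%, vertical axis) of 1 list that were overlapped by at least 1 bp by a peak of another list (horizontal axis), for the forkhead loci (circles, bars are Wilson 95% intervals) and for the whole list (open diamonds), over all peaks and over distal peaks. Of WT forkhead peaks, 35.3% were found in Shh-/- beside 63.4% of the whole list, and 76.5% in Shh-/-;Gli3-/- beside 70.8%. For distal WT peaks the Shh-/- share was 22.2% (interval 6.32 to 54.7%) beside 39.0%. Peaks of 1 locus are not independent of each other, so the intervals are not a test against the whole list.

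Forkhead peaks were of moderate or low rank. A percentile of 100 marks the best score of a list, and the median forkhead peak lay at percentile 30.1 in WT, 35.2 in Shh-/- and 30.7 in Shh-/-;Gli3-/-. An FDR below 0.05 was reached by 7 of 17, 13 of 25 and 29 of 39 peaks (41.2%, 52.0% and 74.4%), each share below that of its whole list. No distal forkhead peak lay above percentile 90 of any list, and 1 of 9, 1 of 15 and 5 of 29 were at least 500 bp wide, beside 9.72%, 11.2% and 19.4% of all distal peaks. Limited to peaks with an FDR below 0.05, distal peaks numbered 2, 6 and 20. At this limit the whole lists held 5219, 10226 and 16591 distal peaks, so the mutants stood at 1.96 and 3.18 times WT.

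**Figure D4:**
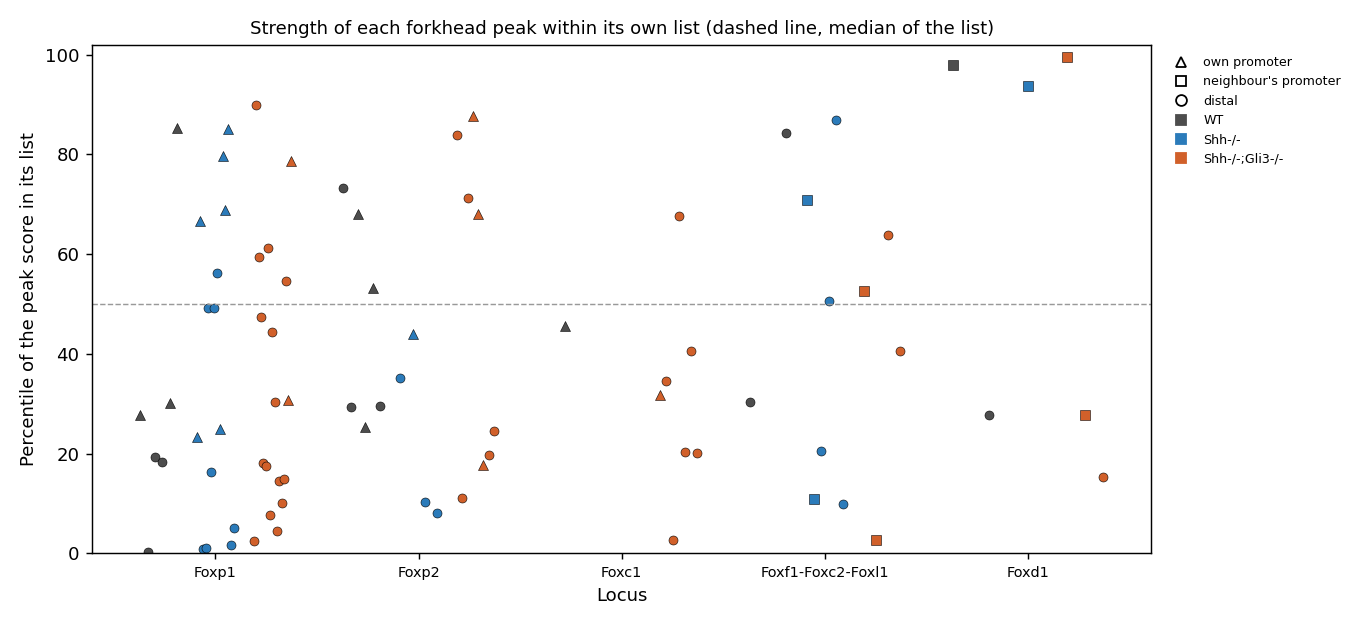
Percentile of each forkhead peak's score within its own list (vertical axis, 100 is the strongest) at the 5 loci with peaks (horizontal axis), with shape for the kind of peak and colour for the list. Only the Btf3 promoter near Foxd1 lies above 90 in each list, the intronic Foxp1 peak of Shh-/-;Gli3-/- reaches 89.9, and many distal peaks lie below the dashed median of the list.

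The printed windows and those around all other forkhead peaks were searched on both strands, in 300 bp centred on each peak, for a GLI motif (GACCACCCA), a forkhead motif (TGTTTAC), a HOX13-type motif (TTTTATTGG) and an E-box (CAGATG). These motifs do not overlap each other in the printed windows. All counts are of windows, so a motif may lie outside the called peak, and a wide peak may hold one beyond its window. For example, the Shh-/- peak chr8:121174900-121175399 spans the forkhead motif printed above (121175328-121175334) but was not counted. The forkhead motif was in the windows of 2 of 9 distal peaks in WT, 2 of 15 in Shh-/- and 4 of 29 in Shh-/-;Gli3-/-. Of all distal windows 4.06%, 4.20% and 4.53% hold it. Of these 8 windows, 6 lie in Foxp1, and the mutant interval printed above counts in both mutant lists. The GLI motif was found at 0 of 9, 0 of 15 and 1 of 29 distal peaks, beside 0.317%, 0.225% and 0.218% of all. The HOX13-type motif was found at 1 of 9, 0 of 15 and 0 of 29, beside 0.309%, 0.322% and 0.465%, and the E-box at 1 of 9, 2 of 15 and 4 of 29, beside 22.2%, 22.7% and 22.3%. At promoter peaks the GLI and HOX13-type motifs were in no window, and from 0.0968% to 0.283% of all promoter windows of a list hold each. The forkhead motif and the E-box were each in 1 of 10 Shh-/-;Gli3-/- windows, beside 2.39% and 11.8% of all. Both were at the Foxp2 peak chr6:15184650-15184899. Neither was in a WT or Shh-/- promoter window, where the shares of all were 2.18% and 2.30% (forkhead) and 11.7% and 11.6% (E-box). RefSeq promoter sequences of GRCm38.p6 were at hand for Foxc1, Foxd1, Foxf2 and Foxp1, and none of them held any of the motifs. Over all RefSeq promoters the shares were 0.253% (GLI), 3.65% (forkhead), 0.371% (HOX13-type) and 17.2% (E-box). Their GC content was 67.3%, 57.7% and 71.3% for Foxc1, Foxd1 and Foxf2 and from 48.7% to 75.3% over the 3 Foxp1 promoters, where the median of 32851 promoters was 52.7%. A GC-rich promoter was thus present both at Foxc1, which carried a peak, and at Foxf2, which did not.

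The 50 kb limit of the windows left out few peaks lying close by. In Shh-/-;Gli3-/- a peak began 0.506 kb beyond the far edge of the chromosome 8 cluster, and the outermost peak inside that edge lay 4.845 kb within it. At every other edge the nearest peak outside was at least 36.0 kb away.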

How the data were processed

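H3K27ac was measured in forelimb buds of 3 genotypes, and groups were taken from the sample titles, because the genotype entry in the labels reads wild type for every library. Library amplification took 12 PCR cycles per the labels, and the submitters' processing notes name mm10 and Bowtie2 2.2.5. The authors called peaks with CisGenome. In the labels each list belongs to a genotype's first replicate, with no word on pooling, whereas the methods of the study mention 2 biological replicates for peak calling. The deposited lists give each peak's start and end in steps of 50 bp, a score (the largest statistic, which orders the list), the largest log2 fold over the input of that genotype, a −log10 Poisson p-value and an FDR (a q-value). Whether positions count from 0 or 1 is not stated. Positions are printed as the lists give them.

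Covered length is the sum of peak widths. Peaks overlapped when they shared at least 1 bp. Folds were not compared between lists, except to pick the named and printed peaks of a class. Promoter windows and gene spans came from the GENCODE M21 basic set, and sequences from GRCm38.p6, where 0 peaks ran past a chromosome end. Analyses used Python 3.11.15, numpy 2.4.6, pandas 2.3.3, scipy 1.17.1 and pysam 0.24.0. The overlap code was tested on a copy of the WT list with peaks removed at random and the rest shifted slightly. Every gene of the list was named, together with the 3 distal peaks of highest fold in each class of lists and the widest peak of each list. The genes, marker lists and windows were chosen with earlier results of these data known. The result of 1 marker list is not reported here. The other forkhead genes were the 36 remaining protein-coding genes whose symbols consist of Fox, a letter and a number. The 4 motifs and the alternatives given in the closing section were part of the same plan.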

Additional observations from a re-analysis of the deposited data

How the results depend on the processing

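The ratios of covered length, the shares of WT peaks overlapped and the distal counts, 7 values in all, were recomputed at FDR below 0.05, with equal numbers of peaks per list, with windows of 10 kb and 100 kb, with peaks within 1 kb merged and, for shares, with reciprocal 50% overlap. The Shh-/- to WT ratio of covered length (1.20) turned to 0.992 with equal numbers of peaks and otherwise lay between 1.15 and 1.49. The Shh-/-;Gli3-/- to WT ratio (2.61) lay between 2.23 and 3.67. The share of WT peaks overlapped by a Shh-/-;Gli3-/- peak moved from 76.5% to 100% at FDR below 0.05 (7 of 7), 91.7% with 10 kb windows and 35.3% with reciprocal overlap, and that for Shh-/- lay between 29.4% and 57.1%. Distal peaks in WT (9) fell to 2 at FDR below 0.05 and 5 with 10 kb windows. Those in Shh-/- (15) fell to 6 at FDR below 0.05, 6 with equal numbers and 8 when merged, and those in Shh-/-;Gli3-/- (29) to 14 with equal numbers and 18 when merged. With equal numbers of peaks the order of WT and Shh-/- in distal peaks was thus turned (9 and 6). Over the whole lists the Shh-/- count was then 0.988 times that of WT. Of the 37 recomputed values, 10 moved past the limit set for them, which was 1.5 times for a ratio or count and the Wilson interval for a share. The Shh-/- ratio of covered length with equal numbers of peaks turned direction within its limit, and the other 26 stayed within theirs. Fewer peaks or merged peaks lower counts by construction, and other causes were not tested.

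No paired analysis was possible because only 1 peak list stands for a genotype. For the same reason, leaving out a replicate was not possible, and differences between lists cannot be told apart from differences in depth or input.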
